A study of Homo sapiens with 24 samples.

Results

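Parental 5637 cells, a line from a bladder carcinoma, were set against parental OVCAR8 cells, a line from an ovarian carcinoma, both kept for 24 h without drug. The comparison used 6 of the 24 libraries in the series, 3 for each line, taken by the labels for line, state (parental) and treatment (control). In the rest of the series the same lines appear as neratinib-resistant derivatives (NR), kept off the drug for 1 week before seeding, and with neratinib, an irreversible inhibitor of the EGFR, ERBB2 and ERBB4 kinases, given at 600 nM to 5637 and 1 µM to OVCAR8. The 3 libraries of a group come from triplicate dishes. P-values and standard errors measure the spread between such dishes, estimated over all 8 groups of the series, and this spread may be technical. Each line is 1 culture line from 1 tumour, and a difference between them is a difference between these lines, not between the organs they came from.

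Bladder urothelium is a layered epithelium in which basal cells express KRT5 and TP63, while surface cells make uroplakins under the transcription factors GATA3, FOXA1 and PPARG. Ovarian carcinoma of the common high-grade kind is traced to Müllerian epithelium, which expresses PAX8 and often WT1 and MUC16. Epithelial cells are held together by E-cadherin (CDH1) and desmosomes, and the repressors ZEB1 and ZEB2 silence epithelial genes in mesenchymal cells.

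Counts were available for 39786 genes, and library totals were 40.2 to 42.5 M counts in 5637 and 34.5 to 41.7 M counts in OVCAR8, with 23.85 to 48.5 M over the whole series. Levels are given in CPM, the counts of a gene scaled to the library total, and in RPKM, which also divides by gene length, where different genes are compared. OVCAR8 replicate 2 stood apart by transcript length. Genes over 8 kb took 23.2 to 23.5% of nuclear counts in 5637, against 15.35% in OVCAR8 replicate 2 and 22.2 to 23.1% in the other 11 OVCAR8 libraries of the series. Genes under 1 kb took 1.34 to 1.39% in 5637, against 2.26% in OVCAR8 replicate 2 and 1.27 to 1.42% in those 11 libraries. Results are therefore given with all 6 libraries and again without this one.

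The 2 lines differed in most genes they expressed. Of 20250 genes tested with edgeR's quasi-likelihood test, 7115 were higher in 5637 (35.1%) and 7461 were higher in OVCAR8 (36.8%) at a Benjamini-Hochberg adjusted p below 0.05, which is 72.0% of the genes together. Differences of at least 4-fold were held by 2305 genes higher in 5637 (11.4%) and 2568 higher in OVCAR8 (12.7%), or 24.1% together. Without OVCAR8 replicate 2 the same test on 20813 genes called 7561 higher in 5637 (36.3%) and 7599 higher in OVCAR8 (36.5%), of which 2357 (11.3%) and 2586 (12.4%) were 4-fold. The 3 libraries of 5637 lay wholly above or below those of OVCAR8 in 69.4% of tested genes. With such a background, a count for a gene group is read against these shares, and a group in which most members were called in both directions does not stand apart.

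The length of a gene bore on its difference while OVCAR8 replicate 2 was in the comparison. Over 2762 genes of more than 8 kb the median log2 difference (5637 minus OVCAR8) was 0.18 with all libraries and 0.05 without that library. Over 2455 genes of 1 to 2 kb it was -0.14 with all libraries and -0.02 without it. The 2809 genes under 1 kb did not continue this order, with a median of 0 with all libraries and 0.08 without it. These shifts are small beside the differences of the lineage genes that follow.

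**Figure D1:**
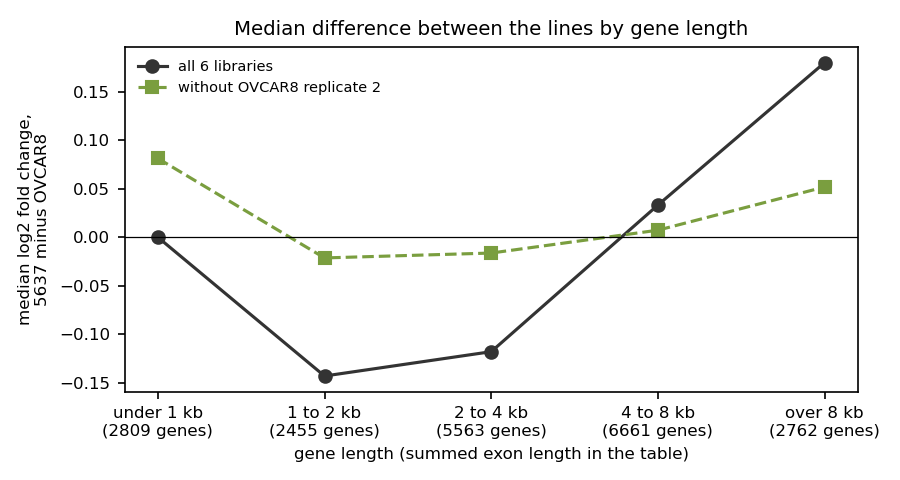
Median log2 fold change, 5637 minus OVCAR8 (vertical axis), over the tested genes of 5 classes of gene length (horizontal axis), with all 6 libraries (black circles) and without OVCAR8 replicate 2 (green squares). The median in genes over 8 kb is 0.18 with all libraries and 0.05 without that replicate.

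The genes with the largest fitted folds were at 0 counts in 1 of the lines. Folds against a line at 0 are lower bounds, set against 3 counts per library, so their order among genes counted in both lines is not known. In 5637 the highest bounds among the 10 genes taken by fitted fold were those of EHF, an ETS transcription factor of epithelia, with 224, 231 and 218 CPM in 5637 and 0 counts in each OVCAR8 library (at least 2896-fold higher), and S100A9, a subunit of calprotectin, with 219.9, 216 and 220.2 CPM in 5637 and 0 counts in OVCAR8 (at least 2823-fold higher). MMP2, a gelatinase, had 182, 174 and 172 CPM in 5637 and 0 counts in OVCAR8 (at least 2271-fold higher). The other 7 genes named by the same rule were SORL1 (a sorting receptor), GRHL2 (a regulator of epithelial junction genes), GJB2 (connexin 26), KLK10 (a kallikrein), GOLIM4 (a Golgi protein), MACC1 (a transcriptional activator of MET) and EFS (a SRC-binding adaptor). Their bounds lay between 1010-fold for EFS and 1658-fold for SORL1, and all 7 were at 0 counts in the 3 OVCAR8 libraries.

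In the other direction PRSS21, the membrane protease testisin, had 0 counts in each 5637 library and 252, 341 and 240.2 CPM in OVCAR8 (at least 3803-fold higher in OVCAR8). PRAME, a cancer-testis antigen, had 0 counts in 5637 and 214, 248 and 227 CPM in OVCAR8 (at least 3142-fold higher in OVCAR8). CTCFL, the germline paralogue of the insulator protein CTCF, had 0 counts in 5637 and 171, 128 and 165 CPM in OVCAR8 (at least 2116-fold higher in OVCAR8). Among adult tissues these 3 genes are known mainly from testis. The remaining genes at 0 counts in 5637 were OR7E19P (an olfactory receptor pseudogene), PLEKHG4 (a guanine nucleotide exchange factor), PPP1R14A (an inhibitor of myosin phosphatase), EPB41L3 (a membrane skeleton protein), TRIM58 (a ubiquitin ligase), TSPYL5 and GFRA1 (a co-receptor for GDNF), with bounds from 946-fold for GFRA1 to 2663-fold for OR7E19P. OVCAR8 replicate 2 stood apart in several of them, with 173, 47.2 and 152 CPM of TRIM58 and 106, 238 and 113 CPM of PPP1R14A in replicates 1 to 3.

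The urothelial transcription factors PPARG, GATA3 and FOXA1 were higher in 5637, the bladder line, and TBX2 was higher in OVCAR8. The uroplakins UPK1A, UPK2 and UPK3A were low in both lines, while UPK1B was higher in 5637 (log2 difference 6.88). Of 16 tested genes of the urothelial list 13 were higher in 5637, 12 of them by 4-fold, and 3 were higher in OVCAR8, with a median log2 difference of 3.23 against -0.01 over all genes tested. PPARG, a nuclear receptor of urothelial differentiation, had 93.2, 90.5 and 93.9 CPM in 5637 and 9.24, 10.6 and 10.01 CPM in OVCAR8. GATA3 had 70.96, 72.8 and 70.4 CPM in 5637 and 12.5, 10.3 and 11.9 CPM in OVCAR8. FOXA1 had 28.8, 26.7 and 28.3 CPM in 5637 and 3.82, 3.22 and 4.48 CPM in OVCAR8. In each of these 3 genes every 5637 library lay above every OVCAR8 library, by a log2 difference of 3.22 ± 0.08 for PPARG, 2.63 ± 0.10 for GATA3 and 2.87 ± 0.11 for FOXA1 (SE, n = 3 per line; the largest edgeR adjusted p was 7.7e-17, for FOXA1). Without OVCAR8 replicate 2 these were 3.31, 2.59 and 2.80 in the same order. In bulk RNA, fewer cells that express a gene and less of it per cell cannot be told apart, here and in the results that follow.

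ELF3, an ETS factor of urothelium and other epithelia, had 189, 196 and 204 CPM in 5637 and 0.096, 0.261 and 0.269 CPM in OVCAR8 (log2 difference 9.89, and 10.10 without replicate 2). VGLL1, a cofactor of TEAD transcription factors, had 49.2, 48.05 and 50.7 CPM in 5637 and 0 counts in OVCAR8, at least 637-fold higher. Both were among the clearest urothelial differences, with no overlap between the lines. Uroplakins are membrane proteins that plate the bladder surface. UPK1B had 8.41, 8.38 and 8.26 CPM in 5637 and 0.096, 0.029 and 0.0734 CPM in OVCAR8. UPK2 had 1.07, 1.01 and 1.79 CPM in 5637 and 0.024, 0.145 and 0.049 CPM in OVCAR8, and UPK3A stayed at or under 0.141 CPM in 5637 and 0.0245 CPM in OVCAR8. UPK1A was nearly absent from 5637, with 1 count over the 3 libraries, and reached 0.288, 0.348 and 0.318 CPM in OVCAR8. Among the exceptions to the direction of the list, TBX2, a T-box repressor, had 1.07, 1.08 and 1.11 CPM in 5637 and 5.33, 6.15 and 4.55 CPM in OVCAR8 (log2 difference -2.29, and -2.13 without replicate 2). FGFR3, a receptor often mutated in bladder tumours, had 19.7, 19.6 and 20.1 CPM in 5637 and 32.1, 25.4 and 32.9 CPM in OVCAR8 (log2 difference -0.60, and -0.67 without replicate 2). Another listed urothelial keratin, KRT20, was not analysed here.

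Genes of basal and squamous epithelium were nearly all on the side of 5637. Of 27 tested members 26 were higher in 5637, 23 of them by 4-fold, and TGM1 alone was higher in OVCAR8. The median log2 difference was 7.71, or 5.44 with the 10 members that had a line at 0 counts set at their bounds. Without OVCAR8 replicate 2 the counts were again 26, 23 and 1. KRT5, the keratin of basal cells, had 3999, 3953 and 3893 CPM in 5637 and 0.072, 0.203 and 0.416 CPM in OVCAR8 (edgeR adjusted p = 1.4e-19). TP63, the transcription factor that maintains basal cells, had 236, 237 and 228 CPM in 5637 and 2 counts in all over the 3 OVCAR8 libraries. DSG3, a desmosomal cadherin of basal layers, had 39.8, 41.5 and 40.7 CPM in 5637 and 0 counts in OVCAR8, at least 525-fold higher. These 3 basal genes were close to nil in each OVCAR8 library.

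Other keratins of stratified epithelium followed at lower levels. KRT6A, whose near-identical copies make its count uncertain, had 358, 369 and 363 CPM in 5637 and 0.024, 0.087 and 0.0734 CPM in OVCAR8. KRT16 had 9.81, 11.2 and 9.62 CPM in 5637 and 0.12, 0.435 and 0.171 CPM in OVCAR8. KRT14, the partner of KRT5, had 6.57, 6.02 and 6.26 CPM in 5637 and 0.384, 0.551 and 0.514 CPM in OVCAR8 (log2 difference 3.71, and 3.85 without replicate 2). KRT14 was thus far below KRT5 in 5637, at 2.75 against 919.9 RPKM. TGM1, which cross-links the cornified envelope, had 3.51, 4.02 and 4.02 CPM in 5637 and 8.57, 7.51 and 9.06 CPM in OVCAR8 (log2 difference -1.12, and -1.15 without replicate 2).

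Over the keratin family, 19 of 21 tested genes were higher in 5637 and KRT8 and KRT18 were higher in OVCAR8. The median log2 difference was 5.32, or 2.99 with 4 members at their bounds. KRT19, a keratin of ducts and urothelium, had 3844, 3752 and 3678 CPM in 5637 and 0.024, 0.145 and 0.416 CPM in OVCAR8. KRT13, of non-cornified stratified epithelium, had 124, 119 and 139 CPM in 5637 and 0.024, 0 and 0.0245 CPM in OVCAR8. KRT7, of simple epithelium and urothelium, was abundant in both lines, with 2866, 2615 and 2648 CPM in 5637 and 1204, 1552 and 1092 CPM in OVCAR8 (log2 difference 1.07, and 1.29 without replicate 2). The pair KRT8 and KRT18, found in all simple epithelia, was abundant in both lines. KRT18 had 787, 733 and 705 CPM in 5637 and 938, 1578 and 1057 CPM in OVCAR8 (log2 difference -0.70, and -0.38 without replicate 2). KRT8 had 2084, 1957 and 1906 CPM in 5637 and 2217, 3430 and 2268 CPM in OVCAR8. Its log2 difference of -0.43 (edgeR adjusted p = 0.0072) was -0.13 without replicate 2, where it was no longer called (edgeR adjusted p = 0.12).

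**Figure D2:**
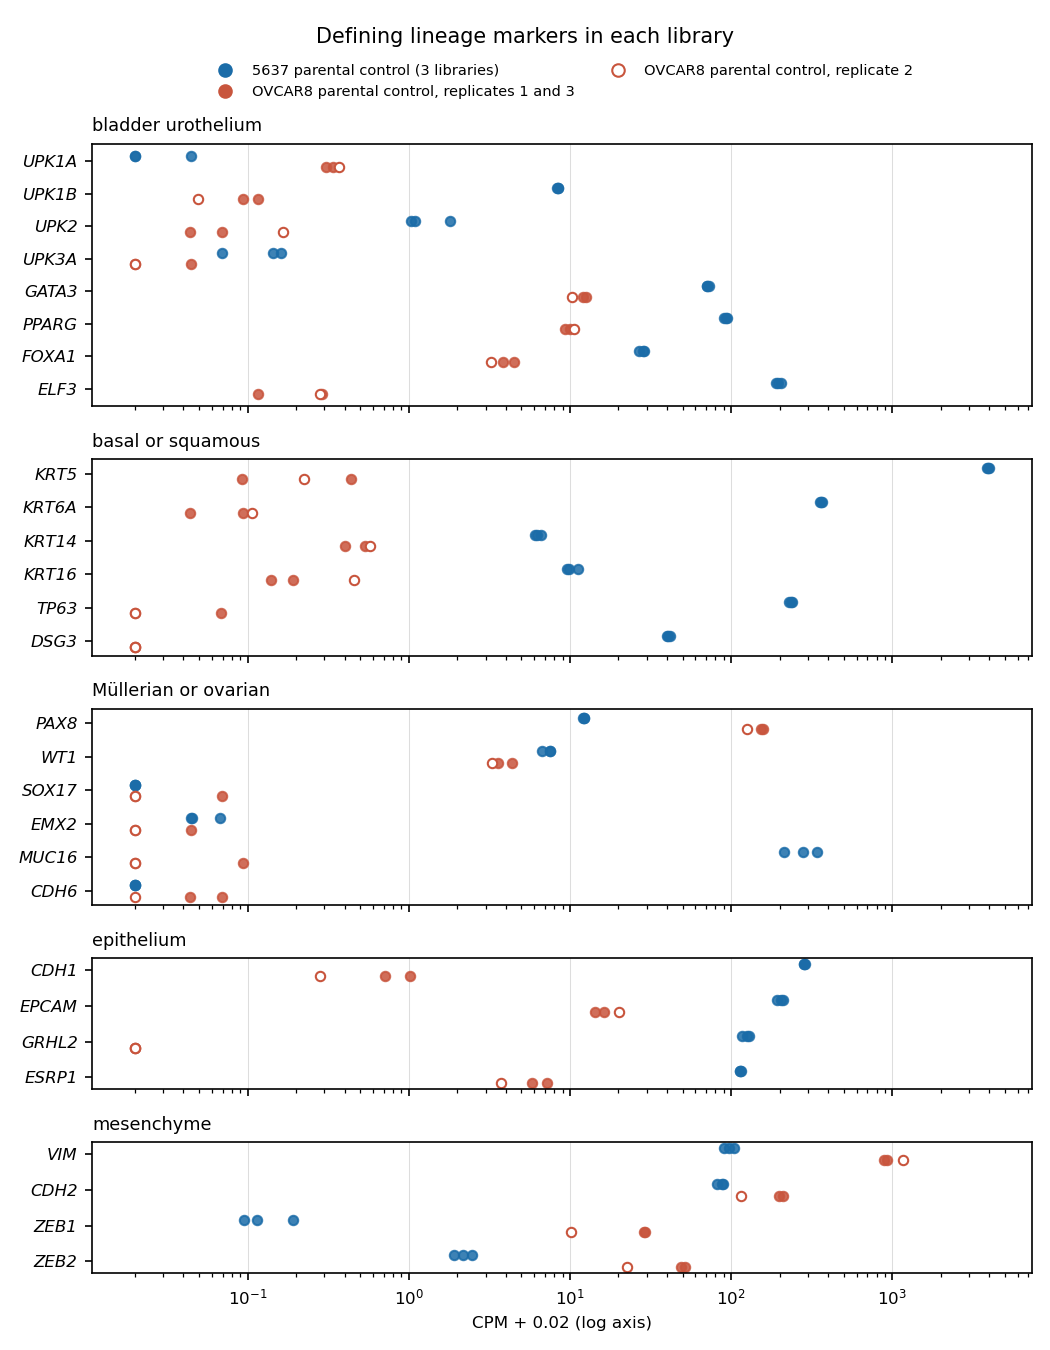
CPM + 0.02 on a log axis (horizontal) of the defining lineage markers (rows, in 5 panels) in each parental control library, with 5637 in blue and OVCAR8 in red, its replicate 2 as open circles. KRT5, TP63, CDH1 and GRHL2 lie far to the right in 5637, while VIM, ZEB1 and ZEB2 lie to the right in OVCAR8.

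Müllerian and ovarian carcinoma genes did not go with OVCAR8 as a group. Of 17 tested members 10 were higher in 5637 and 7 were higher in OVCAR8, with 6 of each by 4-fold and a median log2 difference of 1.01. Without OVCAR8 replicate 2 the counts were again 10 and 7, and the median was 0.93. Another 7 listed genes were too low in the libraries to be tested. PAX8, the transcription factor of Müllerian epithelium, was among the OVCAR8 genes, with 12.2, 12.2 and 12 CPM in 5637 and 157, 126 and 153 CPM in OVCAR8. No 5637 library came near an OVCAR8 library, and the log2 difference was -3.57 ± 0.10 (SE, n = 3 per line; edgeR adjusted p = 4.0e-19; -3.63 without replicate 2). In NR control cells, which share no library with this comparison, the PAX8 difference was -0.78.

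MSLN, the surface protein mesothelin, had 3.86, 3.97 and 3.88 CPM in 5637 and 266, 406 and 267 CPM in OVCAR8 (log2 difference -6.34, and -6.04 without replicate 2). FOLR1, folate receptor alpha, had 0.0249, 0.0493 and 0.0471 CPM in 5637 and 7.78, 14.2 and 9.595 CPM in OVCAR8 (log2 difference -7.92, and -7.59 without replicate 2). PGR, the progesterone receptor, had 0.0249, 0.0986 and 0.0235 CPM in 5637 and 14.7, 5.39 and 14.5 CPM in OVCAR8. These were the named ovarian genes with the label's direction. Against it went MUC16, the source of the CA125 antigen, which had 212, 281 and 341 CPM in 5637 and 3 counts in all over the OVCAR8 libraries. WFDC2, the serum marker HE4, had 81.2, 88.1 and 88.1 CPM in 5637 and 0.576, 2.203 and 0.93 CPM in OVCAR8. MECOM, a zinc finger transcription factor, had 37.1, 38.96 and 38.1 CPM in 5637 and 0.024, 0 and 0.0245 CPM in OVCAR8, and LYPD1 had 38.9, 36.9 and 36.6 CPM in 5637 and 0.024, 0 and 0 CPM in OVCAR8.

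WT1, a transcription factor of serous ovarian carcinoma and mesothelium, was low in both lines, with 6.72, 7.54 and 7.53 CPM in 5637 and 4.32, 3.25 and 3.57 CPM in OVCAR8 (log2 difference 0.97 ± 0.16, and 0.93 without replicate 2). SOX17, EMX2 and CDH6, further defining markers, had at most 2 counts in any of the 6 libraries. Of the 6 defining Müllerian markers, PAX8 alone was thus called higher in OVCAR8, while WT1 and MUC16 were called higher in 5637.

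Markers of other cell types were looked at because a culture can hold or resemble them. Of 7 tested mesothelial genes 3 were higher in 5637 and 4 in OVCAR8, and the whole list of 9 summed to 101 to 115 CPM in 5637 and 303 to 443 CPM in OVCAR8. MSLN made up most of this sum in OVCAR8, and UPK3B, which has a near-identical copy, most of it in 5637. The blood cell list summed to 1.22 to 1.81 CPM in 5637 and 4.26 to 5.74 CPM in OVCAR8. Of its defining genes, PTPRC and CD3E had at most 1 count in any library. The endothelial list summed to 2.74 to 3.26 CPM in 5637 and 97.6 to 161 CPM in OVCAR8, carried by EGFL7, ESAM and TIE1. Its defining genes PECAM1, CDH5 and VWF stayed at or under 0.796 CPM in 5637 and 0.528 CPM in OVCAR8. The fibroblast list summed to 148 to 154 CPM in 5637 and 1167 to 1294 CPM in OVCAR8, nearly all of it COL1A1, while DCN and COL3A1 had at most 2 counts in any library. Whether other cells contributed to a difference between the lines was not tested.

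Most epithelial junction genes and regulators were higher in 5637. Of 28 tested members 26 were higher in 5637, 20 of them by 4-fold, and AP1M2 and TJP3 were higher in OVCAR8. The median log2 difference was 4.22, and without OVCAR8 replicate 2 it was 4.24, with 24 members higher in 5637 and TJP3 higher in OVCAR8, while AP1M2, MARVELD2 and OCLN were not called. CDH1, E-cadherin (chr16:68771128-68869451, hg19, as deposited), had 284, 282 and 286 CPM in 5637 and 0.696, 0.261 and 1.004 CPM in OVCAR8. Each 5637 library was far above each OVCAR8 library, with a log2 difference of 8.73 ± 0.18 (SE, n = 3 per line; edgeR adjusted p = 1.5e-21; 8.43 without replicate 2). EPCAM, an epithelial adhesion molecule, was detected in both lines, with 209, 203 and 192 CPM in 5637 and 14.2, 20.3 and 16.4 CPM in OVCAR8 (log2 difference 3.57, and 3.77 without replicate 2).

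Regulators of the epithelial state went the same way. GRHL2 had 129, 126 and 118 CPM in 5637 and 0 counts in OVCAR8, at least 1599-fold higher. ESRP1, a splicing factor of epithelial isoforms, had 115, 114 and 113 CPM in 5637 and 5.76, 3.74 and 7.15 CPM in OVCAR8 (log2 difference 4.37, and 4.19 without replicate 2). OVOL1, a repressor of mesenchymal genes, had 19.3, 17.9 and 17.98 CPM in 5637 and 0.048, 0.029 and 0 CPM in OVCAR8. MAL2, a protein of apical transport, had 206, 218 and 199.8 CPM in 5637 and 0.624, 0.435 and 0.343 CPM in OVCAR8 (log2 difference 8.79, and 8.78 without replicate 2). AP1M2, the epithelial form of a clathrin adaptor subunit, had 114, 109.6 and 110.1 CPM in 5637 and 121, 199.5 and 125 CPM in OVCAR8, with replicate 2 the highest. Its log2 difference was -0.43 with all libraries (edgeR adjusted p = 0.0079) and -0.10 without that replicate, where it was not called (edgeR adjusted p = 0.16).

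ZEB1 and its relatives bind the E-box CAGGTG, so the promoters of the epithelial genes were read for it. RefSeq promoter windows on GRCh38.p14, from 250 bases before to 50 bases after the start, were found for 18 of the 31 listed genes (none for CDH1), and 8 of them (44.4%) held the letters CAGGTG or the reverse complement CACCTG. All 35116 windows held it in 20.6%, and the 11210 windows of tested genes in 19.0%. A match is a description of the letters and no evidence of binding. At least 2 matches stood in 4 of the 18 windows (22.2%), in 3.49% of all windows and in 2.69% of the windows of tested genes. Among genes called 4-fold higher in 5637, 291 of 1122 windows (25.9%) held a match, against 257 of 1193 (21.5%) among those 4-fold higher in OVCAR8, and of the 21 windows of mesenchymal genes 2 did (9.52%). The 250 bases before the start are printed for 3 genes on chromosomes 19 and 1, chosen to show many matches, a gene with a large difference, and matches in a gene that did not go with the rest, with matches in capitals and the rest in lower case.
CRB3: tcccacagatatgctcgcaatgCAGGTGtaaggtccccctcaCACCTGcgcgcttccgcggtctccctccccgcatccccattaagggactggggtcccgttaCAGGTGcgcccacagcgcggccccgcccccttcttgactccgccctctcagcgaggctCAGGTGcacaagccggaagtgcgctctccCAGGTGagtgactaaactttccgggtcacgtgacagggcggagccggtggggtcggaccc
RAB25: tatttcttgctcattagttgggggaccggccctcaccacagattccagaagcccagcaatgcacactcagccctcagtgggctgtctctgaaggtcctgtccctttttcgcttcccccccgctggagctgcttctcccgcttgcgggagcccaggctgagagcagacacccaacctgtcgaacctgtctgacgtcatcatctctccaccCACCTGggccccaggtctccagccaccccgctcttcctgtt
AP1M2: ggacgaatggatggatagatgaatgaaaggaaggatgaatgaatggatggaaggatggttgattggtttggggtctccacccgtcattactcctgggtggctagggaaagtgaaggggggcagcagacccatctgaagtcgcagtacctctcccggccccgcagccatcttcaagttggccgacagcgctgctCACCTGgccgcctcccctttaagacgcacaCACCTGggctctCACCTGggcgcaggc
The CRB3 stretch (chr19:6464021-6464270, plus strand) has 5 matches, of which the nearest begins 60 bases before the start. The RAB25 stretch (chr1:156060910-156061159, plus strand) has 1, at 41 bases before the start, and its whole window holds another beyond the printed bases. The AP1M2 stretch (chr19:10587313-10587562, minus strand) has 3, at 57, 27 and 15 bases. CRB3, an apical polarity protein, had 5.72, 4.81 and 4.801 CPM in 5637 and 0.408, 0.232 and 0.343 CPM in OVCAR8 (log2 difference 3.94, and 3.80 without replicate 2). RAB25, a GTPase of epithelial recycling, had 15.3, 14.4 and 15.7 CPM in 5637 and 0.072, 0.058 and 0.0245 CPM in OVCAR8 (log2 difference 8.13, and 8.25 without replicate 2). Genes with matches therefore included both large differences and AP1M2, which had 3 matches and a small difference of the other sign. Windows without a match also included large log2 differences of both signs, at 7.09 for CLDN7, 6.02 for SPINT1 and -4.34 for TJP3. No fold was fitted for CLDN3 and TMC4, which held matches, or for CLDN4, which held none.

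Mesenchymal genes were higher in OVCAR8 in most but not all cases. Of 33 tested members 23 were higher in OVCAR8, 14 of them by 4-fold, and 8 were higher in 5637, 5 of them by 4-fold, with a median log2 difference of -1.17 (-1.20 without OVCAR8 replicate 2). ZEB1 had 0.0747, 0.173 and 0.0941 CPM in 5637 and 28.8, 10.2 and 29.03 CPM in OVCAR8. All OVCAR8 libraries, of which replicate 2 was the lowest, lay above those of 5637, and the log2 difference was -7.58 ± 0.38 (SE, n = 3 per line; edgeR adjusted p = 1.3e-14; -7.91 without replicate 2). ZEB2 had 1.89, 2.15 and 2.45 CPM in 5637 and 51.9, 22.6 and 48.5 CPM in OVCAR8 (log2 difference -4.22, and -4.49 without replicate 2). VIM, the intermediate filament vimentin, was present in both lines, with 105, 96.8 and 90.2 CPM in 5637 and 887, 1173 and 926 CPM in OVCAR8 (log2 difference -3.36, and -3.17 without replicate 2). CDH2, N-cadherin, had 88.8, 87.97 and 81.5 CPM in 5637 and 211, 115 and 198 CPM in OVCAR8 (log2 difference -1.0, and -1.20 without replicate 2).

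NNMT, nicotinamide N-methyltransferase, had 1.32, 1.28 and 1.41 CPM in 5637 and 53.5, 105 and 63.8 CPM in OVCAR8 (log2 difference -5.81, and -5.40 without replicate 2). TAGLN, the actin-binding protein transgelin, had 2.69, 1.55 and 1.67 CPM in 5637 and 51.1, 58.5 and 50.4 CPM in OVCAR8 (log2 difference -4.76, and -4.64 without replicate 2). The collagens were split between the lines. COL1A1 had 134, 135 and 139 CPM in 5637 and 1262, 1144 and 1205 CPM in OVCAR8 (log2 difference -3.14, and -3.13 without replicate 2), while COL1A2, which joins it in the type I collagen trimer, had 12.8, 12.4 and 13.01 CPM in 5637 and 0, 0 and 0.0245 CPM in OVCAR8. COL5A2 had 30.1, 28.5 and 27.7 CPM in 5637 and 0.768, 0.493 and 0.979 CPM in OVCAR8 (log2 difference 5.25, and 5.09 without replicate 2). With MMP2, described above, and THY1 at 61.9, 65.6 and 64.8 CPM in 5637 and 0.336, 0.232 and 0.734 CPM in OVCAR8, they were the mesenchymal genes furthest on the side of 5637. SNAI2, a repressor of E-cadherin that basal epithelial cells also express, had 74.3, 74.9 and 72.3 CPM in 5637 and 7.54, 6.64 and 8.27 CPM in OVCAR8 (log2 difference 3.31, and 3.27 without replicate 2). In NR control cells the median of the mesenchymal list was -0.34. Of the 23 members higher in OVCAR8 16 were called that way again and 5 were called the other way. Over all tested genes higher in OVCAR8 these were 5737 and 413 of 7461.

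Most genes of desmosomes and hemidesmosomes followed the epithelial pattern. Of 19 tested desmosome and hemidesmosome genes 15 were higher in 5637, 10 of them by 4-fold, and 3 were higher in OVCAR8, with a median log2 difference of 2.56 (2.42 without OVCAR8 replicate 2). ITGB4, integrin beta 4 of the hemidesmosome, had 1715, 1646 and 1626 CPM in 5637 and 32.7, 36.3 and 44.4 CPM in OVCAR8, a log2 difference of 5.46 ± 0.13 (SE, n = 3 per line; edgeR adjusted p = 1.7e-20; 5.48 without replicate 2). COL17A1, the collagen of the hemidesmosome, had 661, 636 and 606 CPM in 5637 and 1.73, 1.797 and 1.81 CPM in OVCAR8 (log2 difference 8.48, and 8.53 without replicate 2). LAMA3, the alpha chain of a basement membrane laminin, had 442, 434 and 422 CPM in 5637 and 3.58, 2.17 and 5.04 CPM in OVCAR8 (log2 difference 6.91, and 6.70 without replicate 2). Among the exceptions DSP and DST are long genes, and both were low in OVCAR8 replicate 2. DSP, desmoplakin, had 384, 404 and 394 CPM in 5637 and 808, 342 and 782 CPM in OVCAR8, so that this replicate lay below 5637 and the others above it (log2 difference -0.69, and -0.96 without replicate 2). DST, the plakin dystonin, had 173, 182 and 176 CPM in 5637 and 612, 219.7 and 608 CPM in OVCAR8 (log2 difference -1.41, and -1.74 without replicate 2).

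Claudins, which seal tight junctions, numbered 14 tested genes, with 5 higher in 5637 and 3 higher in OVCAR8 (median log2 difference 0.51, or 0.23 with 1 member at its bound). CLDN7 had 120.1, 123 and 122 CPM in 5637 and 0.672, 0.928 and 1.102 CPM in OVCAR8 (log2 difference 7.09, and 7.15 without replicate 2). CLDN1 had 228, 249 and 240.3 CPM in 5637 and 35.4, 25.1 and 34.95 CPM in OVCAR8 (log2 difference 2.92, and 2.81 without replicate 2), and CLDN11 had 3.01, 3.21 and 2.99 CPM in 5637 and 33.4, 30.6 and 30.3 CPM in OVCAR8 (log2 difference -3.35, and -3.33 without replicate 2). Integrins, the receptors for matrix, were divided, with 9 of 22 tested genes higher in 5637 and 13 higher in OVCAR8 (median log2 difference -0.39, and -0.49 without replicate 2). ITGB6, which pairs with integrin alpha V, had 98.7, 104 and 93.7 CPM in 5637 and 0.048, 0.058 and 0.0245 CPM in OVCAR8 (log2 difference 11.09, and 11.34 without replicate 2). ITGA2, of the collagen receptor, had 278, 283 and 274 CPM in 5637 and 3.31, 0.696 and 2.94 CPM in OVCAR8 (log2 difference 6.89, and 6.52 without replicate 2). On the other side ITGA4, of the VCAM1 receptor, had 0.348, 0.197 and 0.259 CPM in 5637 and 26.7, 11.3 and 26.02 CPM in OVCAR8 (log2 difference -6.28, and -6.56 without replicate 2). ITGAX, known from myeloid cells, had 0 counts in 5637 and 6.098, 5.33 and 7.42 CPM in OVCAR8, at least 85.98-fold higher in OVCAR8.

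HOX genes, homeobox factors that mark position along the body axis, were divided by cluster. Of 37 tested genes 21 were higher in 5637 and 14 were higher in OVCAR8, with a median log2 difference of 1.49. All 8 tested genes of HOXC on chromosome 12 were higher in OVCAR8, with a median log2 difference of -4.30 (-4.32 without OVCAR8 replicate 2). HOXC genes summed to 2.39, 2.96 and 2.94 CPM in 5637 and to 80.7, 88.8 and 77.8 CPM in OVCAR8. The other 3 clusters leaned to 5637, with 9 of 11 tested HOXA genes, 6 of 9 HOXB genes and 6 of 9 HOXD genes higher there. HOXA genes on chromosome 7 summed to 131, 129.6 and 136 CPM in 5637 and to 33.2, 27.0 and 27.2 CPM in OVCAR8. HOXD genes on chromosome 2 summed to 83.2, 83.3 and 89.1 CPM in 5637 and to 26.2, 28.1 and 25.3 CPM in OVCAR8. HOXB genes on chromosome 17 were closest, at 182, 189 and 197 CPM in 5637 and 103, 118 and 99.4 CPM in OVCAR8. No cluster sum overlapped between the lines.

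Single genes showed the same division. HOXC10 (chr12:54378849-54384063, hg19) had 0 counts in 5637 and 32.1, 39.8 and 34.1 CPM in OVCAR8, at least 483-fold higher in OVCAR8. HOXC8 had 0.597, 0.641 and 0.635 CPM in 5637 and 17.5, 15.2 and 15.2 CPM in OVCAR8 (log2 difference -4.66, and -4.66 without replicate 2), and HOXC6 had 0.821, 0.888 and 0.871 CPM in 5637 and 16.4, 16.6 and 14.9 CPM in OVCAR8 (log2 difference -4.21, and -4.13 without replicate 2). HOXB13, at the posterior end of its cluster, had 11.3, 12.2 and 11.1 CPM in 5637 and 0.024, 0.087 and 0.049 CPM in OVCAR8 (log2 difference 7.74, and 8.24 without replicate 2). HOXA9 had 28.1, 27.1 and 27.3 CPM in 5637 and 1.58, 1.305 and 0.857 CPM in OVCAR8 (log2 difference 4.47, and 4.54 without replicate 2). HOXD10 had 33.8, 37.5 and 37.5 CPM in 5637 and 0.672, 0.58 and 0.93 CPM in OVCAR8 (log2 difference 5.63, and 5.54 without replicate 2). In NR control cells all 8 HOXC genes were again called higher in OVCAR8, with a median log2 difference of -3.96. Over all tested genes 5737 of the 7461 higher in OVCAR8 were called that way again.

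**Figure D3:**
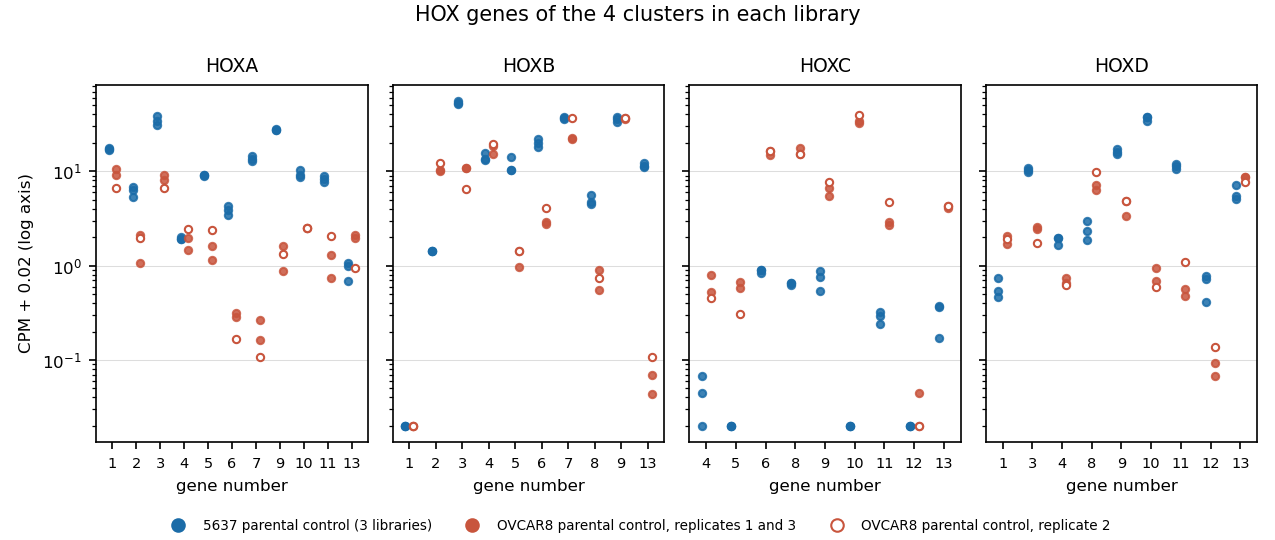
CPM + 0.02 on a log axis (vertical) of HOX genes by their number in the 4 clusters (horizontal) in each parental control library, with 5637 in blue and OVCAR8 in red, its replicate 2 as open circles. In HOXC the OVCAR8 points lie above those of 5637, with HOXC10 at 0 counts in 5637, while HOXA, HOXB and HOXD mostly show the opposite.

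EGFR, ERBB2 and ERBB3 were expressed in both lines and ERBB4 was near 0 in both, and the lines differed in which receptor was higher. These receptor tyrosine kinases, the family neratinib inhibits, pair on binding EGF-like ligands and signal through the RAS-MAPK and PI3K-AKT pathways. ERBB2 has no ligand of its own and ERBB3 little kinase activity. EGFR (chr7:55086714-55324313, hg19) had 649, 683 and 658 CPM in 5637 and 324, 119 and 302 CPM in OVCAR8. All 5637 libraries lay above the OVCAR8 libraries, of which replicate 2 was lowest, and the log2 difference was 1.44 ± 0.18 (SE, n = 3 per line; edgeR adjusted p = 1.4e-07), or 1.13 without replicate 2. ERBB2 (chr17:37844167-37886679, hg19) had 275, 268 and 260.4 CPM in 5637 and 135, 125 and 138 CPM in OVCAR8, with no overlap and a log2 difference of 1.01 ± 0.07 (edgeR adjusted p = 1.0e-11; 1.02 without replicate 2). ERBB3 went the other way, with 75.5, 74.4 and 74.6 CPM in 5637 and 145, 119 and 161 CPM in OVCAR8, and a log2 difference of -0.91 ± 0.07 (edgeR adjusted p = 2.0e-11; -0.98 without replicate 2). ERBB4 was nearly off in both, with 0.324, 0.247 and 0.306 CPM in 5637 and 0.144, 0 and 0 CPM in OVCAR8.

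Per gene length the order of the receptors differed between the lines. In 5637 mean levels were 51.2 RPKM for EGFR, 25.9 RPKM for ERBB2, 8.65 RPKM for ERBB3 and 0.0225 RPKM for ERBB4. In OVCAR8 they were 19.2 RPKM for EGFR, 16.4 RPKM for ERBB3, 12.9 RPKM for ERBB2 and 0.00369 RPKM for ERBB4. Without replicate 2 the OVCAR8 means were 24.1 RPKM for EGFR, 17.7 RPKM for ERBB3 and 13.2 RPKM for ERBB2, so ERBB2 stood next to EGFR in 5637 and below ERBB3 in OVCAR8 either way. Among NR control cells the log2 differences were 1.32 for EGFR, 0.49 for ERBB2 and -1.21 for ERBB3.

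The ligands differed in kind between the lines. Of 9 tested ligand genes 6 were higher in 5637, 4 of them by 4-fold, and 3 were higher in OVCAR8, 2 of them by 4-fold, with and without OVCAR8 replicate 2. Ligands of EGFR made up most of the 5637 side. EREG, epiregulin, had 64.2, 65.7 and 60.2 CPM in 5637 and 0.096, 0 and 0.0245 CPM in OVCAR8. AREG, amphiregulin, had 5.898, 6.21 and 5.29 CPM in 5637 and 0, 0.029 and 0.049 CPM in OVCAR8. EPGN, epigen, had 3.31, 3.97 and 3.29 CPM in 5637 and 0 counts in OVCAR8, at least 45.5-fold higher. These 3 ligands were close to nil in OVCAR8. HBEGF, which binds EGFR and ERBB4, differed little, with 32.01, 32.4 and 30.7 CPM in 5637 and 25.2, 28.5 and 24.6 CPM in OVCAR8 (log2 difference 0.28, and 0.39 without replicate 2), and without OVCAR8 replicate 1 its difference of 0.20 was not called. BTC, betacellulin, had 0.871, 0.912 and 0.918 CPM in 5637 and 0.36, 0.174 and 0.416 CPM in OVCAR8 (log2 difference 1.48, and 1.26 without replicate 2).

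Neuregulins, the ligands of ERBB3 and ERBB4, were split. NRG1 had 24.5, 25.7 and 22.7 CPM in 5637 and 43.5, 38.4 and 41.5 CPM in OVCAR8 (log2 difference -0.76, and -0.76 without replicate 2). NRG2 had 0.0995, 0 and 0.0471 CPM in 5637 and 2.52, 2.15 and 1.93 CPM in OVCAR8, and NRG4, which binds ERBB4, had 4.63, 4.83 and 4.66 CPM in 5637 and 0.84, 0.348 and 1.05 CPM in OVCAR8 (log2 difference 2.64, and 2.36 without replicate 2). NRG1 and NRG2 thus lay higher in the line with more ERBB3, and NRG4 in the other. EGF itself had 0.0498, 0.0986 and 0.118 CPM in 5637 and 1.37, 1.25 and 1.52 CPM in OVCAR8 (log2 difference -3.90, and -3.92 without replicate 2). NRG3 had at most 1 count in any library and was not tested. TGFA was listed at 0 in each library, which is not read as absence, since overlapping genes and near-identical copies may share reads. RRAS2, a widely expressed relative of RAS, also had at most 2 counts in any library, and the cause was not tested for either gene. Among NR control cells all 9 tested ligands were called in the same direction as here. Over all tested genes this held for 5435 of the 7115 higher in 5637 and 5737 of the 7461 higher in OVCAR8.

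**Figure D4:**
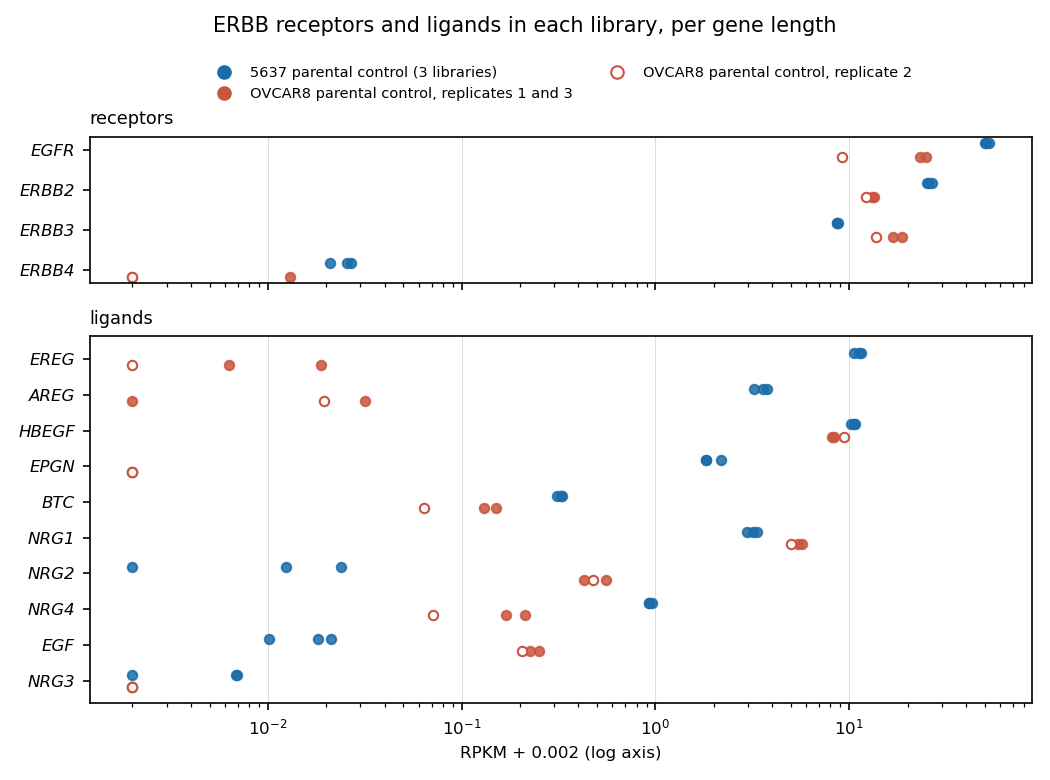
RPKM + 0.002 on a log axis (horizontal) of the ERBB receptors and ligands (rows) in each parental control library, with 5637 in blue and OVCAR8 in red, its replicate 2 as open circles. EREG, AREG and EPGN lie far to the right in 5637. NRG2 and EGF lie to the right in OVCAR8, NRG1 only slightly so, and ERBB3 is the receptor that is higher in OVCAR8.

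Genes that restrain ERBB receptors showed no common direction, with 6 of 14 tested members higher in 5637, 5 higher in OVCAR8 and a median log2 difference of 0.19 (-0.01 without OVCAR8 replicate 2). CBLC, an epithelial ubiquitin ligase for EGFR, had 35.7, 35.6 and 36.8 CPM in 5637 and 0, 0.029 and 0 CPM in OVCAR8. CBLB, a related ligase, had 31.7, 32.2 and 34.1 CPM in 5637 and 4.85, 2.44 and 4.38 CPM in OVCAR8 (log2 difference 3.07, and 2.87 without replicate 2). ERRFI1, the feedback inhibitor MIG6, had 154, 152 and 139 CPM in 5637 and 96.5, 70.5 and 101 CPM in OVCAR8 (log2 difference 0.74, and 0.63 without replicate 2). RNF41, a ligase for ERBB3, had 40.3, 42.2 and 45.2 CPM in 5637 and 71.2, 52.2 and 71.5 CPM in OVCAR8 (log2 difference -0.60, and -0.70 without replicate 2). CBL had 74.3, 75.97 and 76.7 CPM in 5637 and 163, 51.4 and 157 CPM in OVCAR8, where replicate 2 lay below 5637 and the others above it. Its log2 difference was -0.68 with all libraries and -1.03 without replicate 2, and -0.46 without OVCAR8 replicate 3, where it was not called.

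Of the other receptor tyrosine kinases 24 of 46 tested genes were higher in 5637, 13 of them by 4-fold, and 20 were higher in OVCAR8, 14 of them by 4-fold, with a median log2 difference of 0.81 (0.77 without OVCAR8 replicate 2). The FGF receptors divided between the lines. FGFR2, whose IIIb form is epithelial, had 54.5, 54.2 and 53.6 CPM in 5637 and 1 count over the 3 OVCAR8 libraries. FGFR4 had 1.07, 0.863 and 0.965 CPM in 5637 and 111, 142 and 108 CPM in OVCAR8 (log2 difference -6.96, and -6.77 without replicate 2). FGFR1 had 26.5, 25 and 24.2 CPM in 5637 and 419, 306 and 395 CPM in OVCAR8 (log2 difference -3.88, and -3.96 without replicate 2). FGFR1, FGFR3 and FGFR4 were thus higher in OVCAR8 and FGFR2 in 5637.

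EPHA1, an ephrin receptor of epithelia, had 61.3, 61.9 and 62.3 CPM in 5637 and 0.72, 0.638 and 0.636 CPM in OVCAR8 (log2 difference 6.54, and 6.55 without replicate 2). NTRK2, the BDNF receptor, had 8.04, 7.82 and 8.54 CPM in 5637 and 0 counts in OVCAR8, at least 105-fold higher. MET, the HGF receptor, had 562, 548 and 529.9 CPM in 5637 and 101, 55.6 and 106 CPM in OVCAR8 (log2 difference 2.66, and 2.45 without replicate 2). Per length the level of MET was 76.9 RPKM in 5637 and 12.3 RPKM in OVCAR8, so that it stood above EGFR in 5637 and below it in OVCAR8. FLT4, the lymphatic VEGF receptor, had 0.124, 0.0493 and 0.0471 CPM in 5637 and 89.5, 73.6 and 86.3 CPM in OVCAR8 (log2 difference -10.09, and -10.13 without replicate 2). PDGFRB, a receptor of stromal cells, had 0.672, 0.715 and 0.871 CPM in 5637 and 28.1, 17.9 and 27.2 CPM in OVCAR8 (log2 difference -5.0, and -5.14 without replicate 2).

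The RAS and MAPK cascade differed by smaller amounts, with 9 of 26 tested genes higher in 5637, 13 higher in OVCAR8, and 1 and 2 of these by 4-fold (median log2 difference -0.22, and -0.33 without OVCAR8 replicate 2). NF1, a GTPase activator that turns RAS off, had 204, 225 and 211 CPM in 5637 and 48.6, 18.5 and 46.97 CPM in OVCAR8 (log2 difference 2.51, and 2.21 without replicate 2). On the OVCAR8 side MRAS had 4.31, 3.92 and 3.44 CPM in 5637 and 37.5, 34.3 and 39.1 CPM in OVCAR8 (log2 difference -3.25, and -3.25 without replicate 2), and NRAS had 64.7, 66.4 and 58.8 CPM in 5637 and 213, 128 and 187 CPM in OVCAR8 (log2 difference -1.46, and -1.61 without replicate 2).

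In a stretch of chromosome 3 most genes had a positive difference, whether called or not. In a run of 40 adjacent expressed genes from chr3:8543393-11599139 (hg19) the median log2 difference was 2.03, with a positive difference in 36, and in the overlapping runs that follow, up to chr3:9975506-14185179, it was 1.96 and 2.0. FANCD2, SEC13, PPARG, RPL32 and WNT7A, which the gene lists hold, lie there between 10068098 and 13921618, and each was higher in 5637. The medians of the 3 runs in NR control cells were 2.25, 2.23 and 2.29.

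Genes that respond to ERK activity were mixed, with 14 of 27 tested members higher in 5637 and 11 higher in OVCAR8 (median log2 difference 0.68, and 0.70 without OVCAR8 replicate 2). Phosphatases that feed back on ERK and ETS factors named here went opposite ways. DUSP4 had 82.2, 76.04 and 71.3 CPM in 5637 and 2.52, 2.12 and 2.23 CPM in OVCAR8 (log2 difference 5.07, and 5.06 without replicate 2). DUSP6 had 75.1, 72.5 and 60.8 CPM in 5637 and 3.36, 2.87 and 3.35 CPM in OVCAR8 (log2 difference 4.45, and 4.42 without replicate 2), and EGR1, an immediate early factor, had 272, 252 and 155 CPM in 5637 and 9.07, 4.87 and 8.05 CPM in OVCAR8 (log2 difference 4.96, and 4.77 without replicate 2). ETV5, an ETS factor induced by ERK, had 0.0498, 0.148 and 0.235 CPM in 5637 and 67.8, 52.3 and 71.1 CPM in OVCAR8 (log2 difference -8.73, and -8.82 without replicate 2). ETV1 had 3.14, 3.403 and 2.49 CPM in 5637 and 18.8, 10.1 and 19.3 CPM in OVCAR8 (log2 difference -2.40, and -2.61 without replicate 2), and ETV4 had 27.6, 27.7 and 27.2 CPM in 5637 and 52.8, 54.6 and 52.1 CPM in OVCAR8 (log2 difference -0.95, and -0.88 without replicate 2). In NR control cells 11 of the 14 members higher in 5637 were called that way again and 1 the other way. Of the 11 higher in OVCAR8 only 5 were called that way again and 5 were called the other way. Over all tested genes these were 5435 and 314 of 7115 higher in 5637, and 5737 and 413 of 7461 higher in OVCAR8.

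The PI3K and AKT list was even, with 10 of 23 tested genes higher in each line and a median log2 difference of -0.26 (-0.49 without OVCAR8 replicate 2). IRS1, an adaptor of insulin signalling, had 101, 101 and 97.8 CPM in 5637 and 31.1, 14.7 and 32.8 CPM in OVCAR8 (log2 difference 1.95, and 1.69 without replicate 2). PIK3CB, a catalytic subunit, had 27.9, 27.9 and 27.5 CPM in 5637 and 111, 70.97 and 107 CPM in OVCAR8 (log2 difference -1.78, and -1.92 without replicate 2).

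The machinery of mTORC1, a kinase complex that controls growth, had a median difference near 0. Of 46 tested genes 17 were higher in 5637 and 18 were higher in OVCAR8, with 1 and 3 of these by 4-fold and a median log2 difference of 0.07. Leaving out OVCAR8 replicate 2 gave 21 and 19, with a median of 0.15. DDIT4, an inhibitor of mTORC1 under stress, had 39.1, 39.4 and 43.8 CPM in 5637 and 2.26, 4.9 and 4.43 CPM in OVCAR8 (log2 difference 3.41, and 3.66 without replicate 2). SEC13, a subunit of the GATOR2 complex, had 783, 769 and 755 CPM in 5637 and 179.7, 221 and 178 CPM in OVCAR8 (log2 difference 1.99, and 2.15 without replicate 2). RRAGD, a RAG GTPase that recruits mTORC1 to lysosomes, had 1.62, 1.183 and 1.34 CPM in 5637 and 32.3, 39.02 and 34.4 CPM in OVCAR8 (log2 difference -4.67, and -4.54 without replicate 2), and SESN3, a sestrin, had 0.0995, 0.0247 and 0.306 CPM in 5637 and 13.4, 6.73 and 12.6 CPM in OVCAR8. EIF4EBP1, the translational repressor that mTORC1 inactivates, had 80.2, 79.05 and 81.2 CPM in 5637 and 223, 393 and 212 CPM in OVCAR8 (log2 difference -1.80, and -1.39 without replicate 2). Its relative EIF4EBP2 had 173, 178 and 176 CPM in 5637 and 64.8, 41.1 and 69.96 CPM in OVCAR8 (log2 difference 1.60, and 1.43 without replicate 2), so the 2 repressors went opposite ways. MTOR itself had 156, 157 and 154 CPM in 5637 and 152, 63 and 142 CPM in OVCAR8, and its log2 difference of 0.41 was 0.13 without replicate 2.

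Of 26 tested amino acid transporters, which feed mTORC1, 13 were higher in 5637 and 8 in OVCAR8 (median log2 difference 0.21, and 0.14 without OVCAR8 replicate 2). Without that replicate the counts were 12 and 9 of 27, beside 36.3% and 36.5% of all genes. SLC7A5, the large neutral amino acid carrier LAT1, had 1542, 1484 and 1495 CPM in 5637 and 280.5, 156 and 228 CPM in OVCAR8. The lines did not overlap, and the log2 difference was 2.78 ± 0.14 (SE, n = 3 per line; edgeR adjusted p = 6.1e-15; 2.62 without replicate 2). SLC1A3, a glutamate and aspartate carrier, had 187, 201 and 206 CPM in 5637 and 3.84, 2.03 and 3.5 CPM in OVCAR8 (log2 difference 5.98, and 5.80 without replicate 2). SLC38A3, a glutamine carrier, had 0.174, 0.173 and 0.0235 CPM in 5637 and 6.27, 6.001 and 5.46 CPM in OVCAR8 (log2 difference -5.56, and -5.51 without replicate 2), and SLC43A1, a leucine carrier, had 2.89, 2.93 and 2.99 CPM in 5637 and 10.4, 10.9 and 10.6 CPM in OVCAR8 (log2 difference -1.85, and -1.79 without replicate 2).

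Inflammatory cytokines were a feature of 5637. Of 25 tested members 20 were higher in 5637, 16 of them by 4-fold, and 4 were higher in OVCAR8, with a median log2 difference of 4.80 (4.46 with 1 member at its bound), and the counts were the same without OVCAR8 replicate 2. IL1A had 104, 98.3 and 93.5 CPM in 5637 and 1.104, 1.13 and 1.67 CPM in OVCAR8 (log2 difference 6.24, and 6.20 without replicate 2). IL8, a neutrophil chemokine, had 33.2, 33.01 and 30.4 CPM in 5637 and 0.696, 0.377 and 0.612 CPM in OVCAR8 (log2 difference 5.82, and 5.66 without replicate 2). CSF3, the growth factor G-CSF, had 10.6, 11.3 and 9.86 CPM in 5637 and 2 counts over the OVCAR8 libraries, and CSF2, GM-CSF, had 8.84, 8.21 and 8.03 CPM in 5637 and 3 counts over the OVCAR8 libraries. IL18 went the other way, with 34.8, 33.04 and 31.6 CPM in 5637 and 202, 223 and 202 CPM in OVCAR8 (log2 difference -2.66, and -2.56 without replicate 2), as did IL32, with 88.7, 89.8 and 91.3 CPM in 5637 and 185, 325 and 177 CPM in OVCAR8 (log2 difference -1.37, and -0.96 without replicate 2). In NR control cells 19 of the 20 cytokine genes higher in 5637 were called that way again. Of the 4 higher in OVCAR8 1 was called that way again and 2 were called the other way. Over all tested genes 5435 of 7115 higher in 5637 and 5737 of 7461 higher in OVCAR8 were called that way again.

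NF-kB factors and feedback genes followed, with 11 of 17 tested members higher in 5637 and 2 higher in OVCAR8 (median log2 difference 1.12). The counts were 13 and 2 without OVCAR8 replicate 2. TNFAIP3, the feedback inhibitor A20, had 155, 154 and 155 CPM in 5637 and 7.95, 4.35 and 8.45 CPM in OVCAR8 (log2 difference 4.49, and 4.29 without replicate 2). BIRC3, a ubiquitin ligase induced by NF-kB, had 53.4, 56.3 and 51.4 CPM in 5637 and 6.27, 3.88 and 6.07 CPM in OVCAR8 (log2 difference 3.31, and 3.17 without replicate 2). CYLD, a deubiquitinase that restrains NF-kB, had 15.8, 17.9 and 16.4 CPM in 5637 and 55.7, 36.8 and 51.8 CPM in OVCAR8 (log2 difference -1.51, and -1.64 without replicate 2).

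Interferon and antigen presentation genes were mostly higher in 5637, at 22 of 31 tested members, with 7 higher in OVCAR8 and a median log2 difference of 1.62 (1.73 without OVCAR8 replicate 2). B2M, the light chain of HLA class I, had 568, 589 and 576 CPM in 5637 and 13.2, 18.96 and 13.4 CPM in OVCAR8. Every OVCAR8 library was far below every 5637 library, with a log2 difference of 5.24 ± 0.13 (SE, n = 3 per line; edgeR adjusted p = 2.0e-20; 5.49 without replicate 2). OAS1, an interferon-induced sensor of double-stranded RNA, had 11.2, 13.1 and 12.2 CPM in 5637 and 0 counts in OVCAR8, at least 157-fold higher. BST2, the antiviral protein tetherin, was the reverse, with 0.0995, 0.0247 and 0 CPM in 5637 and 148, 279 and 163 CPM in OVCAR8. IFI27 had 0.697, 0.888 and 0.824 CPM in 5637 and 14.4, 29.5 and 15.8 CPM in OVCAR8 (log2 difference -4.64, and -4.18 without replicate 2), so interferon-induced genes did not move as 1 group. The HLA genes of the list have further copies in the table and their counts are uncertain.

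The developmental pathways held members of both directions. Of 24 tested Notch genes 12 were higher in 5637 and 8 higher in OVCAR8 (median log2 difference 0.29, and 0.20 without OVCAR8 replicate 2). DLL1, a Notch ligand, had 52.2, 52.7 and 54.05 CPM in 5637 and 0.288, 0.348 and 0.783 CPM in OVCAR8. JAG1, another ligand, which has a second entry in the table, had 321, 327 and 319.9 CPM in 5637 and 3.02, 2.15 and 3.402 CPM in OVCAR8 (log2 difference 6.82, and 6.70 without replicate 2). LFNG, which modifies Notch receptors, had 105, 98.3 and 101 CPM in 5637 and 5.62, 5.22 and 3.99 CPM in OVCAR8 (log2 difference 4.36, and 4.45 without replicate 2). The receptor NOTCH2 was higher in OVCAR8, with 148, 151 and 148 CPM in 5637 and 660.3, 252 and 633 CPM in OVCAR8 (log2 difference -1.76, and -2.07 without replicate 2), and the target HEYL had 0, 0.074 and 0.0235 CPM in 5637 and 8.71, 6.697 and 8.91 CPM in OVCAR8.

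Among 41 tested Wnt genes 21 were higher in 5637 and 17 higher in OVCAR8 (median log2 difference 0.37, and 0.29 without OVCAR8 replicate 2). WNT7A, a ligand, had 358, 352 and 342 CPM in 5637 and 2 counts over the OVCAR8 libraries. WNT7B had 75.9, 74.5 and 73.8 CPM in 5637 and 2.83, 2.64 and 2.301 CPM in OVCAR8 (log2 difference 4.85, and 4.91 without replicate 2), and WNT10A had 60.9, 61.7 and 66.2 CPM in 5637 and 0.096, 0.232 and 0.245 CPM in OVCAR8 (log2 difference 8.37, and 8.56 without replicate 2). WNT3 was higher in OVCAR8, with 8.76, 7.74 and 8.49 CPM in 5637 and 30.4, 25.4 and 27.2 CPM in OVCAR8 (log2 difference -1.73, and -1.74 without replicate 2), like DKK3, of the Dickkopf family, with 36.6, 37.1 and 36.8 CPM in 5637 and 174, 180.5 and 168 CPM in OVCAR8 (log2 difference -2.24, and -2.17 without replicate 2). SFRP1, a secreted Wnt antagonist, had 12.2, 11.6 and 11.5 CPM in 5637 and 0 counts in OVCAR8, at least 152-fold higher.

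Of 34 tested TGF-beta and BMP genes 18 were higher in 5637 and 8 higher in OVCAR8 (median log2 difference 0.55), and without OVCAR8 replicate 2 these were 17 and 11 (median 0.46). FST, follistatin, which binds activins, had 160.4, 173 and 163 CPM in 5637 and 0.36, 0.609 and 0.661 CPM in OVCAR8 (log2 difference 8.26, and 8.38 without replicate 2). SMAD6, an inhibitor of BMP signalling, had 19.3, 18.96 and 21.3 CPM in 5637 and 1.61, 1.102 and 0.881 CPM in OVCAR8 (log2 difference 4.05, and 4.04 without replicate 2). TGFB1, the ligand, had 60.7, 58.8 and 60.6 CPM in 5637 and 197, 197 and 183 CPM in OVCAR8 (log2 difference -1.68, and -1.61 without replicate 2), and its co-receptor TGFBR3 had 1.57, 1.55 and 1.27 CPM in 5637 and 25.9, 12.1 and 26.4 CPM in OVCAR8 (log2 difference -3.86, and -4.11 without replicate 2).

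Cell cycle, repair and oxidative stress genes were even between the lines. Of 29 tested G1 control genes 12 were higher in each line, of 33 DNA repair genes 12 were higher in 5637 and 14 in OVCAR8, and of 26 NRF2 targets 9 were higher in 5637 and 12 in OVCAR8. Their median log2 differences were 0.09, -0.15 and -0.20 in that order, and 0.15, 0.03 and -0.19 without OVCAR8 replicate 2. E2F3, an activator of S phase genes, had 582, 608 and 601 CPM in 5637 and 92.4, 56.8 and 91.01 CPM in OVCAR8 (log2 difference 2.91, and 2.75 without replicate 2). CDKN1A, the inhibitor p21, had 87.5, 92.1 and 90.7 CPM in 5637 and 17.9, 23.5 and 19.1 CPM in OVCAR8 (log2 difference 2.16, and 2.33 without replicate 2), and CDKN2C, the inhibitor p18, had 4.21, 3.28 and 4.02 CPM in 5637 and 35.6, 40.7 and 35.1 CPM in OVCAR8 (log2 difference -3.28, and -3.15 without replicate 2). The G1 list thus held large differences in single genes of both directions.

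In the repair list FANCD2, of the Fanconi anaemia pathway, had 421, 428 and 401 CPM in 5637 and 45.1, 30.5 and 42.7 CPM in OVCAR8 (log2 difference 3.41, and 3.29 without replicate 2). BRCA1 had 122, 126 and 117 CPM in 5637 and 25.9, 17.4 and 26.04 CPM in OVCAR8 (log2 difference 2.41, and 2.28 without replicate 2). MGMT, which removes alkyl groups from guanine, had 0.0498, 0.197 and 0.212 CPM in 5637 and 24.9, 50.3 and 26.6 CPM in OVCAR8 (log2 difference -7.77, and -7.31 without replicate 2), and was close to nil in 5637. Of the NRF2 targets, ABCC3, a drug efflux pump, had 45.5, 47.3 and 51.2 CPM in 5637 and 0.336, 0.261 and 0.22 CPM in OVCAR8 (log2 difference 7.45, and 7.46 without replicate 2), and TXNRD1, thioredoxin reductase, had 169, 163 and 162 CPM in 5637 and 363, 252 and 378 CPM in OVCAR8 (log2 difference -1.0, and -1.12 without replicate 2).

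Kallikreins, secreted proteases encoded together on chromosome 19, were higher in 5637 at 7 of 8 tested genes, with KLK1 higher in OVCAR8. KLK6 had 75.01, 78.8 and 75.7 CPM in 5637 and 0 counts in OVCAR8, at least 988-fold higher, and KLK5 had 54.9, 56.2 and 59.2 CPM in 5637 and 0.12, 0.029 and 0.049 CPM in OVCAR8. Among NR control cells 2 of these 7 genes were called higher in 5637 again, against 5435 of 7115 over all tested genes. Of 30 listed cancer-testis antigens 12 were in the table, and PRAME and CTCFL, described above, were the 2 that passed the filter on low counts.

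Ribosomal protein genes, a group of short transcripts, changed their direction with OVCAR8 replicate 2. With all libraries 5 of 39 tested genes were higher in 5637 and 17 were higher in OVCAR8, with a median log2 difference of -0.17. Without that replicate 21 were higher in 5637 and 12 were higher in OVCAR8, with a median of 0.16, so the direction of the list rested on it. In RPL32, the gene furthest on the 5637 side, levels were 4291, 4215 and 4196 CPM in 5637 and 955, 1755 and 1008 CPM in OVCAR8 (log2 difference 1.75, and 2.16 without replicate 2). In RPL8 they were 1220, 1170 and 1185 CPM in 5637 and 3634, 6100 and 3816 CPM in OVCAR8 (log2 difference -1.94, and -1.60 without replicate 2). Replicate 2 was the highest OVCAR8 library in both genes.

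**Figure D5:**
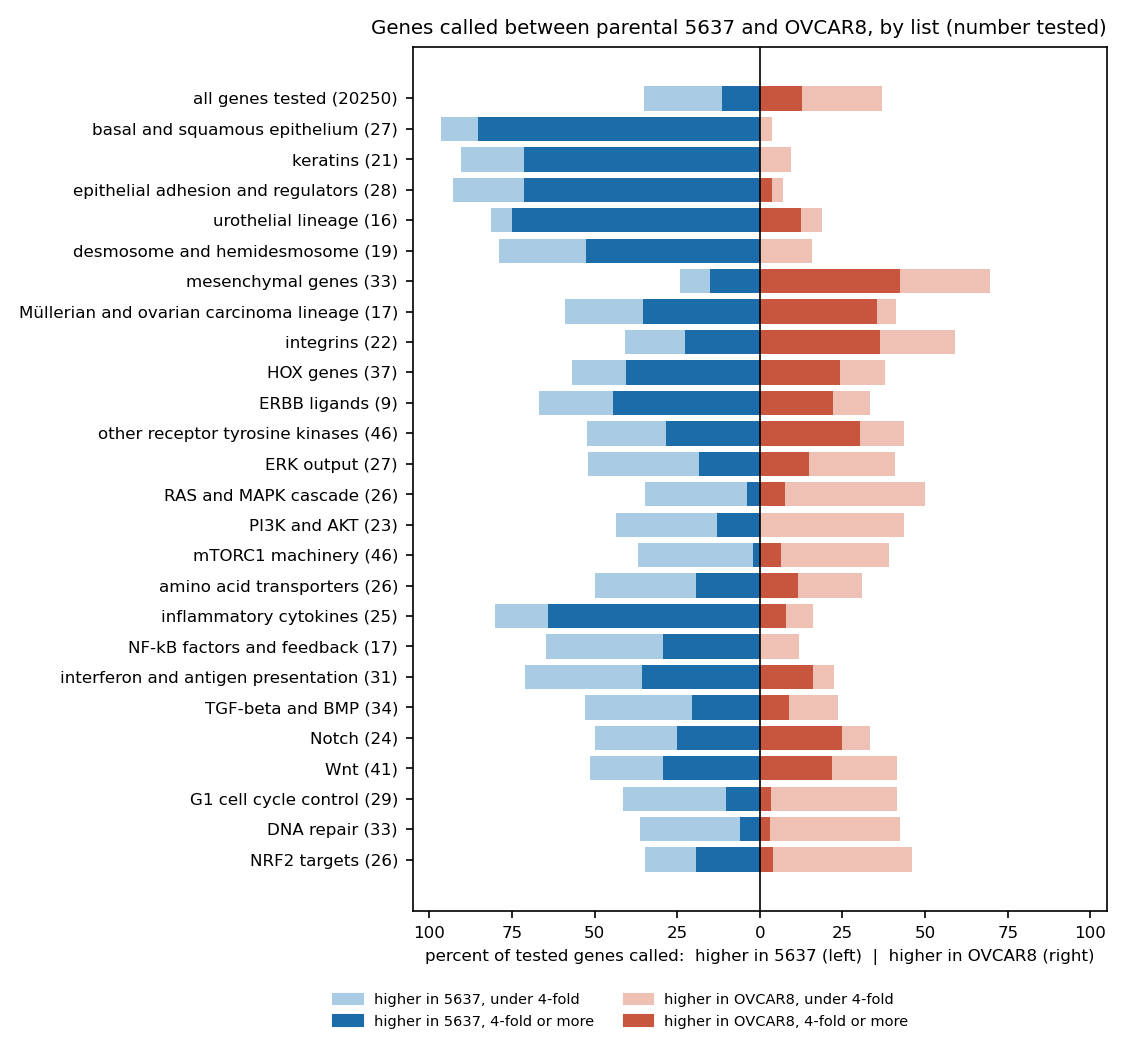
Percent of tested genes called higher in 5637 (left, blue) and higher in OVCAR8 (right, red) over all genes and in 25 gene lists, with dark bars for differences of at least 4-fold and the number tested in brackets. Basal and squamous, keratin, epithelial, urothelial and cytokine lists have longer left bars than the 35.1% of all genes, and the mesenchymal list has a longer right bar than the 36.8% of all genes.

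Most differences between the lines were also present in the other states of the same lines, which share no library with the parental controls. Of 2305 genes 4-fold higher in parental 5637 controls, 2056 were called higher in 5637 in NR controls, 2190 with neratinib in parental cells and 2118 with neratinib in NR cells, and 20, 4 and 17 were called the other way. Of 2568 genes 4-fold higher in parental OVCAR8 controls, 2315, 2473 and 2270 were called higher in OVCAR8 in these states, and 52, 1 and 54 the other way. NR controls called 71.4% of tested genes, and the neratinib comparisons, in which the doses differed between lines, called 72.0% in parental and 72.7% in NR cells. Over all tested genes, 5435 of the 7115 higher in 5637 and 5737 of the 7461 higher in OVCAR8 kept that call in NR controls. Another 314 and 413 were called the other way. Among the lists, all 26 epithelial genes higher in 5637 kept that call in NR controls. Of the 26 basal and squamous genes 21 kept it, near the share over all genes, and 1 was called the other way.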

How the data were processed

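Each library was made from a dish of 5637 or OVCAR8 cells with a stranded mRNA kit (TruSeq Stranded mRNA) and sequenced as read pairs on a HiSeq3000, per the labels' protocols. The authors deposited raw counts of reads per gene, with coordinates on hg19. The submitters' processing notes name DESeq2 1.18.1, featureCounts 1.15.2, STAR 2.5.3a and FastQC, without giving their roles, and the strand setting of the counting is not given in the sources used here. Overlapping genes and near-identical copies may therefore share reads, 983 genes sit on patch contigs, and 1362 entries repeat a symbol.

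Counts were fitted with edgeR 4.0.16 in R 4.3.3 (filterByExpr, TMM factors, quasi-likelihood test, Benjamini-Hochberg threshold 0.05) over all 24 libraries in 8 groups of 3, with 16 residual degrees of freedom. The biological coefficient of variation was 10.8%, or 6.6% without OVCAR8 parental control replicate 2. In a fit of the 6 parental control libraries alone it was 17.9%, or 4.47% without that replicate. A fold is 5637 over OVCAR8, SE is the standard error of the log2 fold, and CPM and RPKM were computed from the counts without TMM factors. A line at 0 counts was set against 3 counts per library. Leaving out 1 of the 6 libraries moved the fold of 41 named or listed genes by over 1.5 times, with a mean of at most 1.24 CPM in the lower line. These are given as levels.

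The members and the 35 gene lists were chosen with earlier results of these data known. Named genes were the 10 in each direction with the largest fold among non-overlapping genes of at least 10 CPM, the ERBB receptors and ligands, the defining lineage markers, and up to 4 members a list in each direction with at least 5 CPM in the higher line, of which the text gives a part and some are not reported here. KRT7, TJP3, MET, FGFR1, SNAI2, IL1A, IL8, CRB3, RAB25, RRAS2 and MTOR were added after their values were seen, as were the markers named for other cell types. Counts for this comparison were simulated over 18764 genes, with 200 well-counted genes changed. Every simulated gene had the same biological coefficient of variation, and no simulated library had a length bias. There the test recovered 100 percent of the 2-fold and of the 4-fold changes and made 11 false calls. Recovery near 0 counts, with a length bias or with most genes changed was not tested. Same-numbered libraries did not deviate together (correlations -0.0603, -0.0333 and 0.000984), so the numbers were not used as pairs. Alternatives were DESeq2 1.42.0, limma 3.58.1 with voom, other scalings and filters, a gene length offset, robust dispersion, the 6 libraries alone, a replicate block and leaving out each library. Tables and figures were made in Python 3.11.15 with pandas 2.3.3.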

Additional observations from a re-analysis of the deposited data

Results flagged for a closer look

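ETV4, SLC43A1 and TBX2 were called higher in OVCAR8 between parental controls and higher in 5637 between NR controls, with no overlap between the lines in either state. The difference between the 2 states was not tested. ETV4 averaged 27.5 ± 0.25 CPM in parental 5637 and 53.2 ± 1.32 CPM in parental OVCAR8 (SD, n = 3 each; log2 difference -0.95), and 170.2 ± 10.5 CPM in 5637 NR and 81.2 ± 2.68 CPM in OVCAR8 NR (log2 difference 1.12). SLC43A1 averaged 2.94 ± 0.051 CPM in parental 5637 and 10.6 ± 0.25 CPM in parental OVCAR8 (log2 difference -1.85), and 15.1 ± 1.6 CPM in 5637 NR and 10.6 ± 0.28 CPM in OVCAR8 NR (log2 difference 0.57). TBX2 averaged 1.09 ± 0.018 CPM in parental 5637 and 5.34 ± 0.80 CPM in parental OVCAR8 (log2 difference -2.29), and 8.38 ± 0.74 CPM in 5637 NR and 4.62 ± 0.61 CPM in OVCAR8 NR (log2 difference 0.92). TGM1 was called in the same opposite directions, but its libraries overlapped between the lines in NR controls. It averaged 3.85 ± 0.30 CPM in parental 5637 and 8.38 ± 0.79 CPM in parental OVCAR8 (log2 difference -1.12), and 2.76 ± 0.63 CPM in 5637 NR and 1.93 ± 0.39 CPM in OVCAR8 NR (log2 difference 0.57).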

How the results depend on the processing

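The 145 recomputed counts over all genes stayed within 1.5 times those given, from 11357 genes called with the 6 libraries alone to 15353 with no filter on low counts, against 14576. Leaving out 1 library each time gave 14003 to 15160 calls, with 6908 to 7561 higher in 5637 and 7052 to 7599 higher in OVCAR8. Without OVCAR8 parental control replicate 2, which there enters the shared spread alone, 15645 genes were called between NR controls, 15889 between parental and 16020 between NR cells on neratinib. With the replicate number as a block there were 14450 calls, 7082 higher in 5637 and 7368 higher in OVCAR8, so the block changed no count by over 1.5 times. The median over all genes moved by less than 0.03 under each scaling. Of the list counts and medians 1721 stayed within 1.5 times (counts) or the spread between replicates (medians) and 64 moved further, and of the recomputed folds of 255 named genes, 4304 kept direction and call. Calls were lost in 19 cases in 9 genes, which were AP1M2, CBL, DSP, HBEGF, KRT8, PKP4, RPS20, SLC7A6 and UPK3A. PDGFRA, not called (log2 difference 0.24), was the gene whose sign changed, at -0.23 without 5637 replicate 3 and -0.21 without OVCAR8 replicate 3, and it was 1.09 without OVCAR8 replicate 1. With length limits of 6 and 1.5 kb, long genes took 41.6 to 41.95% in 5637, against 29.91% in OVCAR8 replicate 2 and up to 40.69% in the others. Replicates are few, and low counts limit the folds of genes close to 0 in either line.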

Other observations

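Beyond the stretch of chromosome 3, other runs of 40 adjacent expressed genes leaned to 1 line. From chr6:2887500-10852986 (hg19) the median log2 difference was -1.65, with a negative difference in 36 genes and a median of -1.27 between NR controls. From chr7:101458959-108097161 it was 1.66, with a positive difference in 37 genes and a median of 1.76 between NR controls. Without OVCAR8 replicate 2 these medians were -1.58 and 1.59. The lean on chromosome 7 went on in overlapping runs, with a median of 1.61 from chr7:105172532-120390385 and 1.65 from chr7:114562209-128415844. Differences there were positive in 39 and 36 genes. Over whole chromosomes the medians ran between -0.69 on chromosome 16 and 0.44 on chromosome 9. FANCD2 at 3.41 and PPARG at 3.22 were listed genes in the chromosome 3 stretch, while XPC, just beyond it, was at -0.56 and SLC6A6 at 0.65.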
